A study of Mus musculus with 40 samples.

Results

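The mature mouse miRNAs mmu-miR-135a-5p, mmu-miR-135b-5p, mmu-miR-137-3p, mmu-miR-138-5p, mmu-miR-153-3p and mmu-miR-218-5p, written below without the prefix, were examined in the hippocampus of a mouse model of heart failure. These 6 miRNAs were chosen by name, as miRNAs with known roles at neuronal synapses, out of 1978 mature miRNAs that were counted. Small RNA was sequenced from the CA1 region of 40 mice, with 1 library per mouse. At 3 months of age there were 5 wild-type control mice and 9 CamKIIδC TG mice, and at 6 months of age 15 wild-type control mice and 11 CamKIIδC TG mice. The transgene of CamKIIδC TG mice raises the level of CaMKIIδC, a calcium-dependent kinase of the heart, and wild-type littermates served as controls. All mice were on the C57Bl/6J background and both sexes were used. The promoter that drives the transgene is not given in the sources used here, and small RNA libraries do not measure the transgene, so the genotype labels could not be checked against it. The labels of wild-type control mice 1 and 2 at 3 months disagree, since their titles name them wild-type but their genotype entries name them TG. These mice were grouped by title. The numbers of TG mice at both ages follow the labels of the libraries and differ from those stated in the study, in their total as well. This touches every comparison that includes TG mice.

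A miRNA is loaded into an Argonaute protein and guides it to messenger RNAs, mainly by pairing of its seed, bases 2 to 8 from the 5′ end, with sites in the target. The hairpin precursor gives 2 strands, called the 5p and 3p arms, of which one usually accumulates. In neurons, miR-138 is known as a regulator of dendritic spine size. The gene of miR-137 lies in a region linked to schizophrenia, and the miRNA acts in neuronal differentiation and synaptic function. miR-153 is known to target transcripts of the synaptic vesicle machinery. The miR-135 family targets transcripts of serotonin signalling, and miR-218 is enriched in neurons and encoded within genes of the Slit axon guidance family.

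The mature sequences are shown because the seed defines the targets of each miRNA and because the results below compare the arms of the miR-153 and miR-137 hairpins. Capitals mark the seed, and the sequences are those of RefSeq for GRCm38.p6, written 5′ to 3′. RefSeq entries were matched for 5 of the 6 miRNAs, the exception being miR-135b-5p, and for all 9 of the other arms.
miR-135a-5p: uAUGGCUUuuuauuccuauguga
miR-137-3p: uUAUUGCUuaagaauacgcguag
miR-137-5p: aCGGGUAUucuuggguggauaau
miR-138-5p: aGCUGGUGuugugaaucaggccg
miR-153-3p: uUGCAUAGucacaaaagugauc
miR-153-5p: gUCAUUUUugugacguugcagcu
miR-218-5p: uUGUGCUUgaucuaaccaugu
The 5 miRNAs carry 5 different seeds. Of the 699 miRNAs that passed the low-count filter over all 40 libraries, 599 (85.7%) had a RefSeq sequence, and none of these shared a seed with any of the 5 miRNAs. miR-135b-5p, the family member of miR-135a-5p, was not among these 599, so its seed was not compared.

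The 6 miRNAs come from 9 hairpins, whose positions are given for GRCm38, with genes from GENCODE M21. Both hairpins of miR-218 lie in introns of Slit genes, Mir218-1 at chr5:48223942-48224051 (+ strand) in Slit2 and Mir218-2 at chr11:35616816-35616925 (+) in Slit3. Mir153 lies at chr12:117250817-117250885 (+) in an intron of Ptprn2, which encodes a protein of secretory vesicles. Mir135b lies at chr1:132198088-132198184 (+) in an intron of Lemd1, and Mir135a-2 at chr10:92072086-92072185 (− strand) in an intron of the long noncoding RNA Rmst. Mir135a-1 lies at chr9:106154124-106154213 (+), in an intron of the noncoding gene D030055H07Rik and opposite an exon of Glyctk. Mir137 at chr3:118433857-118433929 (+) overlaps an exon of the noncoding gene Gm26871. Mir138-1 at chr9:122682876-122682974 (+) overlaps an exon of the pseudogene Gm47135, and Mir138-2 at chr8:94324311-94324381 (+) an exon of the noncoding gene C78859. The mature miR-135a-5p, miR-138-5p and miR-218-5p are each listed with both of their hairpins, and the count on the hairpin with the lower total was 99.95%, 74.6% and 81.1% of that on the other. Reads of these miRNAs can be counted on both hairpins, so the levels below do not say which locus they came from.

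Library totals ranged from 2656368 to 36547011 counts, of which 1926108 to 22892729 were on miRNAs in the form used here. The median total was 22455957 in wild-type control and 29499287 in TG mice at 3 months, and 14908612 and 13894826 at 6 months. Comparisons by age therefore also set deeper against shallower libraries. The part of depth in the changes with age was not tested beyond leaving out the shallowest libraries. The shallowest libraries were those of TG mouse 9 and of wild-type control mice 4 and 5 at 6 months. A floor of 3 counts corresponded to 0.0956 to 2.32 CPM (counts scaled to a common library size by the usual counts-per-million rule), which covers counting error only. All 6 miRNAs were counted in every library, with a lowest count of 16 for miR-135b-5p. The neuronal miRNAs miR-124-3p, miR-9-5p, miR-9-3p and miR-128-3p summed to between 171542 and 365562 CPM, and 4 heart and skeletal muscle miRNAs to between 5.60 and 48.5 CPM. Libraries also differed in composition, as measured by the TMM factor, which scales each library by the bulk of its miRNAs and ranged from 0.62 to 1.37. The factor was under 1 in 0 of 5 wild-type control and 4 of 9 TG libraries at 3 months, and in 6 of 15 wild-type control and 6 of 11 TG libraries at 6 months. Several of the 6 miRNAs were low in the libraries with a low factor. Results for levels are therefore also given within each class of library, a split that was added after the data were examined. The split does not hold the factor constant. Among TG libraries of at least 1, the factor ranged from 1.23 to 1.37 at 3 months and from 1.00 to 1.15 at 6 months, without overlap, and among those under 1 from 0.63 to 0.89 and from 0.74 to 0.85.

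miR-218-5p was by far the most abundant of the 6, with a mean of 20613 ± 5215 CPM (SD, n = 40) and a median rank of 12 among all miRNAs. miR-138-5p followed with 407 ± 132 CPM. miR-137-3p with 189 ± 114 CPM, miR-135a-5p with 169 ± 90.4 CPM and miR-153-3p with 168 ± 74.96 CPM formed the middle of the order, and miR-135b-5p was lowest with 29.8 ± 14.0 CPM. The mature sequences shown, which leave out miR-135b-5p, are 21 to 23 bases long, and counts were compared without scaling for length. How evenly the libraries capture different sequences was not tested, so the order is one of counts and not of molecules. In all 40 libraries miR-218-5p was above miR-138-5p, miR-138-5p was above the 3 miRNAs of the middle, and these were above miR-135b-5p. Within the middle the order changed from mouse to mouse, and miR-137-3p was above miR-153-3p in 23 of 40 libraries and miR-135a-5p above miR-153-3p in 16 of 40. The members of the miR-135 family did not have equal counts, and miR-135b-5p reached a median of 19.8% of the count of miR-135a-5p, with a range of 9.38% to 48.0%. miR-218-5p varied least between mice of the same group, with a coefficient of variation of 14.2% to 25.8%, against 26.4% to 36.1% for miR-138-5p and up to 65.5% for miR-135a-5p in TG mice at 3 months.

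**Figure D1:**
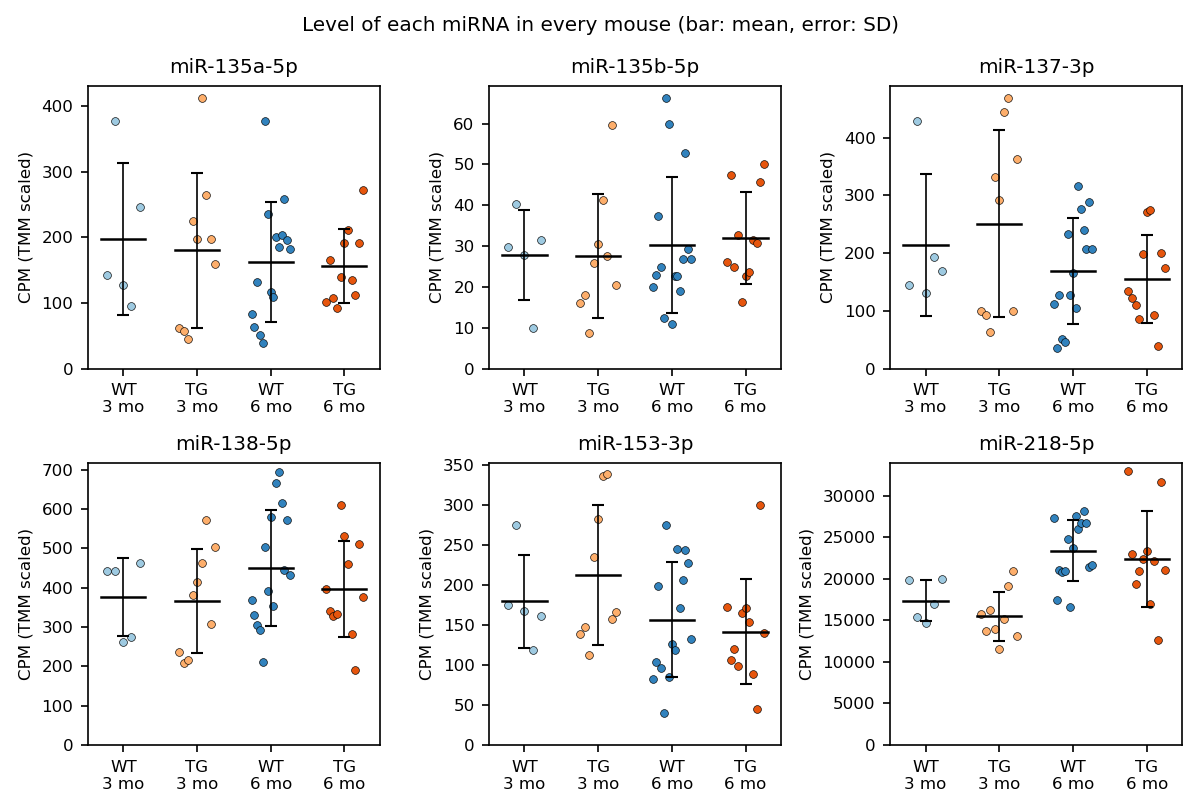
Level of the 6 miRNAs in every mouse, in TMM-scaled CPM on a linear axis from 0, with 1 panel per miRNA and 1 point per mouse. Horizontal bars show the mean and error bars the SD of each group (wild-type control n = 5 and TG n = 9 at 3 months, wild-type control n = 15 and TG n = 11 at 6 months). For miR-218-5p most mice of 6 months lie above the mice of 3 months, and for the other 5 miRNAs the groups overlap.

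The first question was whether the 6 miRNAs differ between 3 and 6 months of age in TG mice, the age range over which the study followed memory and gene expression. Only miR-218-5p was called altered, at an adjusted p under 0.05 in edgeR's quasi-likelihood test and an absolute log2FC above 0.26. This is 1 of the 6 miRNAs, and across all 629 miRNAs tested 15.7% were called, 7.47% as higher and 8.27% as lower at 6 months. None of the 6 was called with age in wild-type control mice, where 0.152% of 660 miRNAs, a single miRNA, were called. An unadjusted p under 0.05 was found for 2 of the 6 in TG mice and for 1 in the controls. The median log2FC of the 6 was −0.04 with age in TG mice and −0.03 in controls, beside −0.09 and −0.02 over all miRNAs tested. None of the 6 separated the ages without overlap in TG mice, where 0.477% of all miRNAs did.

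miR-218-5p, the Slit-hosted miRNA, was higher at 6 months in both genotypes. In TG mice it ranged from 11611 to 20927 CPM with a median of 15126 at 3 months, and from 12699 to 32947 CPM with a median of 22188 at 6 months. The ranges overlapped, with 8 of 11 mice of 6 months above every TG mouse of 3 months. The log2FC was 0.55 (SE 0.16, 95% interval 0.22 to 0.87), with an adjusted p of 0.021 in edgeR. Wild-type control mice of 3 months had 19899, 15389, 14707, 16958 and 20001 CPM, and those of 6 months ranged from 16672 to 28203 CPM with a median of 23726. Here 13 of 15 mice of 6 months were above every mouse of 3 months. The log2FC of 0.42 (SE 0.14, 95% interval 0.13 to 0.71) had an unadjusted p of 0.006 in edgeR and did not pass the correction, with an adjusted p of 0.199. In the interaction test, which compares both age changes, the log2FC was 0.10 (95% interval −0.31 to 0.52) with an adjusted p of 0.986 in edgeR. A difference between the genotypes in the change of miR-218-5p with age was therefore not detected, although only the change in TG mice was called.

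The call in TG mice held in each of 20 fits that left out 1 mouse, with a log2FC of 0.48 to 0.61 and an adjusted p of 0.00768 to 0.047 in edgeR. It was lost without a low-count filter, with a log2FC of 0.49 and an adjusted p of 0.0837 in edgeR. It was also lost when the replicate number of the mice was added to the fit, as described with the other alternatives below. Within the libraries with a TMM factor of at least 1 the log2FC was 0.67 (adjusted p of 0.00279 in edgeR), in a fit that called 42.1% of 693 miRNAs. The factor did not overlap between the ages in these libraries, so age and the factor cannot be told apart there. Within those under 1 the log2FC was 0.47 (adjusted p of 0.201 in edgeR), where 7.48% of 575 miRNAs were called. With DESeq2 in place of edgeR, the change in wild-type control mice was also called, with a log2FC of 0.42 and an adjusted p of 0.0444.

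Some miRNAs that mark other cell types were also called over the same ages. In TG mice, 2 of 2 choroid plexus miRNAs and 1 of 2 endothelial miRNAs were called as higher, and 2 of 3 oligodendrocyte miRNAs as lower. Over all 629 miRNAs tested, 7.47% were called as higher and 8.27% as lower. The other endothelial miRNA, miR-126a-5p, had a log2FC of −0.33 and the third oligodendrocyte miRNA, miR-219a-5p, one of −1.13, and neither was called. The choroid plexus miRNAs summed to between 290.2 and 749 CPM in TG mice at 3 months and to between 638 and 1023 CPM at 6 months. The endothelial sum ranged from 5066 to 9766 CPM and from 7119 to 11719 CPM, and the oligodendrocyte sum from 1193 to 2307 CPM and from 743 to 1356 CPM. Of the 4 erythroid miRNAs 1 rose and 1 fell, of the 4 neuronal miRNAs 1 rose, and none of the 5 microglia and leukocyte, 2 smooth muscle or 2 tested muscle miRNAs was called. Their part in the change of miR-218-5p was not tested, and in bulk tissue fewer cells of a type and less RNA per cell cannot be told apart. None of the miRNAs of these lists was called in wild-type control mice.

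miR-137-3p had the largest coefficient of variation of the 6 over all 40 libraries, 60.05%, and its change with age was not called. TG mice of 3 months ranged from 63.1 to 468 CPM with a median of 292, and TG mice of 6 months from 38.5 to 275 CPM with a median of 135. The 9 TG mice of 3 months were separated into 4 with 63.1 to 100.4 CPM and 5 with 292 to 468 CPM, and the former were those with a TMM factor under 1. The log2FC was −0.69 (SE 0.38, 95% interval −1.46 to 0.09), with an adjusted p of 0.209 in edgeR. Wild-type control mice of 3 months had 145, 429, 131, 193 and 169 CPM, those of 6 months ranged from 34.7 to 317 CPM with a median of 165, and the log2FC was −0.35 (SE 0.40, adjusted p of 0.702). Mouse 2 of the wild-type control mice, whose labels disagree, was the high one. Leaving out mice 1 and 2 gave a log2FC of 0.029.

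Within the libraries with a TMM factor of at least 1, miR-137-3p did not overlap between the ages in TG mice. The 5 mice of 3 months ranged from 292 to 468 CPM and the 5 mice of 6 months from 175 to 275 CPM. In these 10 libraries 24.5% of 693 miRNAs did not overlap, and miR-137-3p was the single one of the 6. The log2FC was −0.76 (SE 0.16), with an adjusted p of 0.000748 in edgeR, in a fit that called 292 miRNAs, 42.1% of those tested. The TMM factor did not overlap between these mice either, so that age and the factor cannot be told apart here. In the libraries under 1, the 4 mice of 3 months had 63.1 to 100.4 CPM and the 6 mice of 6 months 38.5 to 135 CPM, with a log2FC of 0.19 (SE 0.28, adjusted p of 0.676), where 7.48% of 575 miRNAs were called and 4% did not overlap. The direction therefore differed between the classes of library, and a difference between the classes was not itself tested. No wild-type control library of 3 months had a factor under 1, and within those of at least 1 the log2FC was 0.074 (adjusted p of 0.936 in edgeR).

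miR-153-3p, the miRNA hosted by Ptprn2, was lower at 6 months in TG mice before correction and was not called. TG mice of 3 months ranged from 113 to 339 CPM with a median of 166, and those of 6 months from 44.8 to 301 CPM with a median of 139.9. At 6 months 4 of 11 mice were below every mouse of 3 months, and TG mouse 10 with 301 CPM stood above the others of its group. The log2FC was −0.57 (SE 0.27, 95% interval −1.13 to −0.02), with an unadjusted p of 0.0435 and an adjusted p of 0.14 in edgeR. Without TG mouse 10 it was −0.75, with an adjusted p of 0.046, which made miR-153-3p a second called miRNA. Wild-type control mice of 3 months had 175, 275, 168, 119 and 162 CPM, those of 6 months ranged from 40.3 to 275 CPM with a median of 133, and the log2FC was −0.20 (SE 0.32, adjusted p of 0.792). With 2 factors of unwanted variation in DESeq2, which called 312 miRNAs in TG mice, miR-137-3p had a log2FC of −0.49 (adjusted p of 1.32e-05) and miR-153-3p of −0.59 (adjusted p of 0.000602), and both were called beside miR-218-5p. With 1 factor computed from the spike-in oligos, neither was called, and miR-137-3p had a log2FC of 0.058 (adjusted p of 0.773 in edgeR) and miR-153-3p of −0.25 (adjusted p of 0.262).

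miR-138-5p, the regulator of spine size, was not called in either genotype. TG mice ranged from 209 to 571 CPM with a median of 381 at 3 months and from 189.6 to 610.2 CPM with a median of 375 at 6 months, with a log2FC of 0.12 (SE 0.22, adjusted p of 0.708 in edgeR). Wild-type control mice of 3 months had 443, 442, 261, 276 and 462 CPM, and those of 6 months ranged from 211 to 693 CPM with a median of 433. Their log2FC was 0.25 (SE 0.24, adjusted p of 0.635 in edgeR), and the groups overlapped in both genotypes. Under the spike-in factor, miR-138-5p in TG mice had a log2FC of 0.42 and an adjusted p of 0.00598 in edgeR, and was called. Across all miRNAs that fit also called more than the main fit, which called 15.7%, and its count is given with the alternatives below.

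Neither member of the miR-135 family was called with age in either genotype. miR-135a-5p ranged from 45.3 to 412 CPM in TG mice of 3 months, with a median of 197, and from 92.4 to 272 CPM with a median of 139 at 6 months. The log2FC was −0.19 (SE 0.33, adjusted p of 0.699 in edgeR). Wild-type control mice of 3 months had 142, 378, 128, 94.9 and 246 CPM, and those of 6 months ranged from 38.7 to 377 CPM with a median of 183. miR-135b-5p ranged from 8.71 to 59.7 CPM with a median of 25.9 in TG mice of 3 months and from 16.2 to 50.1 CPM with a median of 30.8 at 6 months, with a log2FC of 0.23 (SE 0.28, adjusted p of 0.579 in edgeR). Among controls, miR-135b-5p stood at 29.7, 40.2, 27.9, 9.86 and 31.5 CPM at 3 months and between 11.0 and 66.3 CPM, with a median of 24.8, at 6 months. With age, the log2FC of these controls was −0.29 (SE 0.40) for miR-135a-5p and 0.13 (SE 0.36) for miR-135b-5p, with adjusted p of 0.762 and 0.889 in edgeR. All these groups overlapped.

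The next question was whether TG mice differ from wild-type control mice of the same age. None of the 6 miRNAs was called at either age, where 0% of 695 miRNAs were called at 3 months and 0% of 612 at 6 months, with 7 and 3 miRNAs at an unadjusted p under 0.05 in edgeR. DESeq2 with 2 factors of unwanted variation called 87 and 4 miRNAs, of which 0 and 0 were among the 6. At 3 months the log2FC ranged from −0.21 (SE 0.17) for miR-218-5p to 0.22 (SE 0.32) for miR-153-3p. At 6 months it ranged from −0.20 (SE 0.18) for miR-138-5p to 0.059 (SE 0.25) for miR-135b-5p. The 95% intervals were wider at 3 months, with −1.22 to 0.91 for miR-135a-5p and −0.86 to 1.29 for miR-137-3p, than at 6 months, with −0.62 to 0.49 and −0.78 to 0.50. They were narrowest for miR-218-5p, with −0.56 to 0.14 at 3 months and −0.32 to 0.17 at 6 months. In the interaction of age and genotype, 0% of 699 miRNAs were called, with 14 at an unadjusted p under 0.05, and the log2FC of the 6 ranged from −0.39 (SE 0.43) for miR-153-3p to 0.10 (SE 0.20) for miR-218-5p.

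**Figure D2:**
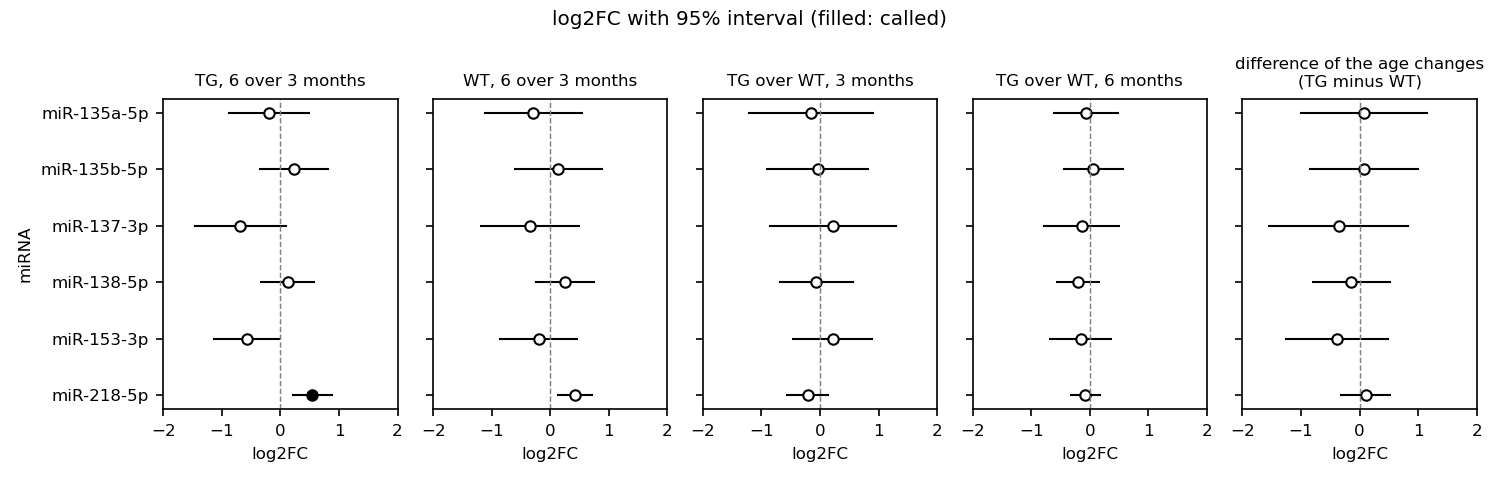
Log2FC of the 6 miRNAs with 95% intervals from edgeR in 5 comparisons, given as 6 months over 3 months in each genotype, as TG over wild-type control mice for both ages, and as the difference between the age changes. The filled point is the miRNA called, miR-218-5p in TG mice with a log2FC of 0.55, and all other points are open.

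The level of 4 of the 6 miRNAs followed the composition of the library. Over the 40 libraries, the deviation of the log2 CPM from the group mean correlated with that of the log2 TMM factor with a Pearson r of 0.88 for miR-137-3p, 0.85 for miR-138-5p, 0.83 for miR-135a-5p and 0.74 for miR-153-3p. The value was 0.31 for miR-135b-5p and 0.058 for miR-218-5p. Over all 699 miRNAs the median r was 0.14, and 35.8% had an r above 0.5. These values are a description over libraries that share depth and composition, and CPM is itself scaled by this factor. With the logarithm of the miRNA count of the library the deviations correlated with an r of 0.69 for miR-137-3p and 0.64 for miR-153-3p. This r was 0.60 for miR-138-5p, 0.55 for miR-135a-5p, 0.23 for miR-135b-5p and 0.13 for miR-218-5p. In TG mice of 3 months miR-138-5p had 209 to 307 CPM in the libraries with a factor under 1 and 381 to 571 CPM in the others, and miR-153-3p 113 to 157 CPM and 166 to 339 CPM. What sets the TMM factor of a library was not tested.

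**Figure D3:**
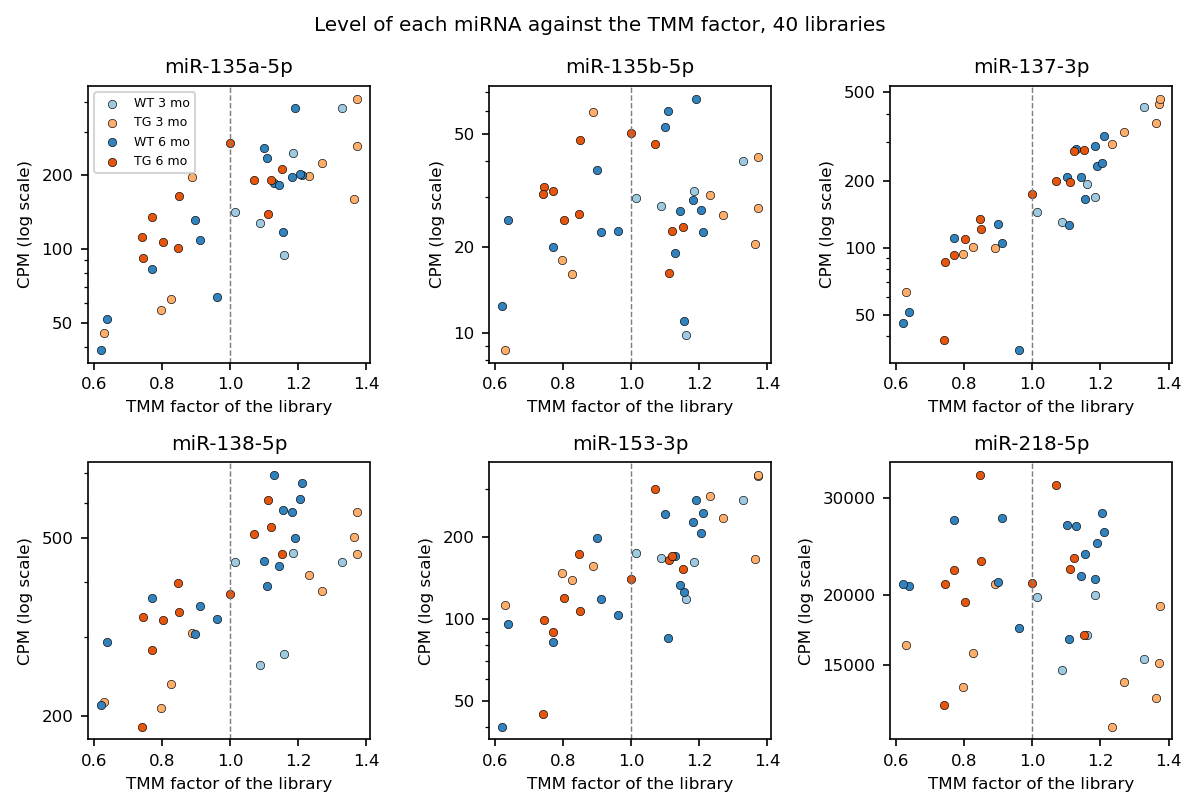
Level of the 6 miRNAs in CPM (log scale) against the TMM factor of the library, with 1 point for each of 40 libraries, coloured by group, and a dashed line at a factor of 1. miR-137-3p, miR-138-5p, miR-135a-5p and miR-153-3p rise with the factor, with an r of deviations of 0.74 to 0.88, and miR-218-5p does not, with an r of 0.058.

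The ratio of the arms of a hairpin does not depend on the scaling of the library, and was compared with limma on the log2 of the ratio of counts. It can still vary with the composition of the library, and no arm ratio was tested within the classes of TMM factor. The ratio of miR-153-3p to miR-153-5p in TG mice was lower at 6 months. It ranged from 2.13 to 5.33 with a median of 3.89 at 3 months and from 1.19 to 4.49 with a median of 2.01 at 6 months, and 7 of 11 mice of 6 months were below every mouse of 3 months. On the log2 scale the mean fell from 1.88 ± 0.46 (SD, n = 9) to 1.02 ± 0.52 (SD, n = 11). The difference was −0.87 (SE 0.23, 95% interval −1.34 to −0.40), with an adjusted p of 0.00999 in limma over 231 hairpins, of which 21.6% were called. The adjusted p was between 0.00371 and 0.0152 in the alternatives tried. Within TG mice of 3 months the ratio was 2.13 to 4.04 in the libraries with a TMM factor under 1 and 3.03 to 5.33 in the others. miR-153-5p itself had a log2FC of 0.25 (SE 0.15, adjusted p of 0.255 in edgeR), opposite in sign to that of miR-153-3p, and neither arm was called.

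The controls had a ratio of miR-153-3p to miR-153-5p of 2.29, 3.93, 3.17, 2.64 and 2.31 at 3 months, and of 1.21 to 3.43 with a median of 2.30 at 6 months. The difference was −0.30 on the log2 scale (SE 0.25, 95% interval −0.82 to 0.21), with an adjusted p of 0.644 in limma, and 0% of 244 hairpins were called. Whether the change of the ratio differs between the genotypes was not tested. By genotype 0% of 259 hairpins were called at 3 months and 0% of 231 at 6 months, and the ratio of miR-153 arms differed by 0.40 (SE 0.26) and −0.17 (SE 0.20) on the log2 scale.

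The arms of miR-137 varied far more. The ratio of miR-137-3p to miR-137-5p ranged from 2.16 to 40.3 with a median of 21.9 in TG mice of 3 months and from 2.50 to 15.2 with a median of 7.99 at 6 months. The difference of −0.92 on the log2 scale (SE 0.52) had an adjusted p of 0.225 in limma and was not called. The 4 TG mice of 3 months with a TMM factor under 1 had ratios of 2.16 to 5.74, and the other 5 had 21.9 to 40.3. The ratio in controls was 7.93, 34.2, 7.97, 10.9 and 7.46 at 3 months and between 1.55 and 22.7, with a median of 9.12, at 6 months, and the high value was again that of mouse 2. miR-137-5p remained within 8.99 to 29.4 CPM over all mice, against 34.7 to 468 CPM for miR-137-3p.

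**Figure D4:**
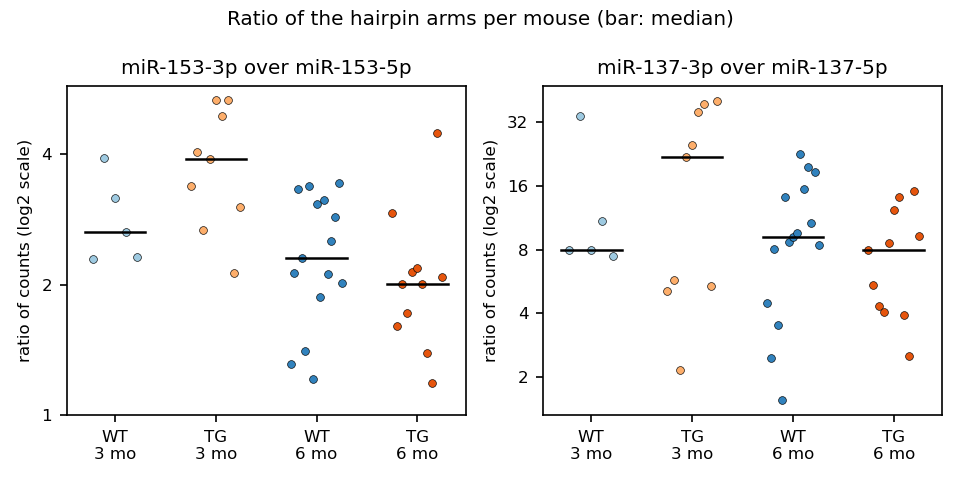
Ratio of the counts of the 3p arm to the 5p arm of the miR-153 and miR-137 hairpins (log2 scale), with 1 point per mouse and a bar at the median of each group. In TG mice the median ratio of miR-153 is 3.89 at 3 months and 2.01 at 6 months. For miR-137 the TG mice of 3 months fall into separate upper and lower points, and the lower points are the libraries with a TMM factor under 1.

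The other arms of miR-218 were close to the limit of detection. miR-218-1-3p had 0 to 21 reads per library and miR-218-2-3p 2 to 36 reads. In TG mice miR-218-1-3p averaged 0.454 ± 0.320 CPM (SD, n = 9) in the younger mice and 1.04 ± 0.219 CPM (SD, n = 11) in the older, and miR-218-2-3p 0.851 ± 0.288 CPM and 1.46 ± 0.575 CPM. Both were called, with a log2FC of 1.12 (SE 0.32, adjusted p of 0.021 in edgeR) and 0.77 (SE 0.26, adjusted p of 0.0475), in the same direction as miR-218-5p. Neither was called in controls, with a log2FC of 0.24 (SE 0.47) and 0.44 (SE 0.25). The ratio of miR-218-5p to miR-218-1-3p fell by 1.11 on the log2 scale (SE 0.38) in TG mice, with an adjusted p of 0.0396 in limma. With a pseudocount of 5 reads in place of 0.5 this difference was −0.74, with an adjusted p of 0.0973, and the call was lost.

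The remaining arms were not called by level in any comparison. miR-135a-2-3p averaged 38.4 CPM in TG mice of 3 months and 30.7 CPM at 6 months, and miR-135a-1-3p 11.6 and 9.91 CPM. The 3p arms of the miR-138 hairpins averaged 10.7 and 18.8 CPM in TG mice of 3 months and 9.79 and 17.7 CPM at 6 months, and miR-135b-3p 1.18 and 1.42 CPM. Over the 40 libraries, the 3p arms of miR-135a varied opposite to miR-135a-5p, with an r of deviations of −0.78 for miR-135a-1-3p and −0.64 for miR-135a-2-3p. The arms of miR-153 varied together with an r of 0.72, and those of miR-137 did not, with an r of −0.37. The arms of miR-135a also differ in base composition, with 30.4% G and C in miR-135a-5p against 59.1% and 47.6% in its 3p arms. Among the others, miR-138-5p has 56.5% G and C and an r of 0.85 with the TMM factor, and miR-218-5p has 38.1% and an r of 0.058. The part of base composition was not tested.

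Among themselves, 4 of the miRNAs varied together from mouse to mouse. The r of deviations from the group means was 0.87 for miR-137-3p with miR-138-5p, 0.81 for miR-135a-5p with miR-137-3p and 0.80 for miR-137-3p with miR-153-3p. miR-135b-5p varied with its family member miR-135a-5p, with an r of 0.69, and less with the others. miR-218-5p varied little with any of the others, with an r of 0.052 to 0.42. These 4 miRNAs are the ones whose levels followed the TMM factor.

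**Figure D5:**
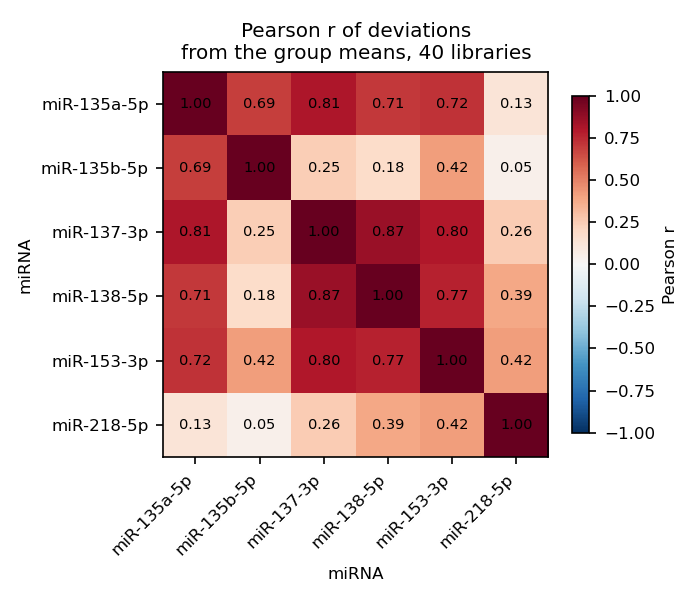
Pearson r between the 6 miRNAs of the deviations of the log2 CPM from the group means over 40 libraries, with the colour scale from −1 to 1 and the value printed in each cell. miR-135a-5p, miR-137-3p, miR-138-5p and miR-153-3p form a block with an r of 0.71 to 0.87, and miR-218-5p lies outside it.

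The miRNAs whose levels were most like those of each of the 6 were named by the same r over 40 libraries and 684 other miRNAs. For miR-137-3p they were miR-106b-5p, miR-30b-5p and miR-361-5p, with an r of 0.95, 0.95 and 0.94. For miR-138-5p they were miR-186-5p, miR-194-5p and miR-106b-5p, with an r of 0.92, 0.92 and 0.91. miR-135a-5p was closest to miR-335-5p, miR-31-5p and miR-376a-5p (0.91, 0.91 and 0.89), and miR-153-3p to miR-3068-5p, miR-136-5p and miR-32-5p (0.89, 0.88 and 0.87). Between 30.7% and 35.5% of the 684 miRNAs had an r above 0.5 with each of these 4, so that a high r is common for them. It was rarer for miR-135b-5p, with 2.34%, and for miR-218-5p, with 3.07%. miR-135b-5p was closest to miR-429-3p, miR-200a-3p and miR-200b-3p, with an r of 0.91, 0.83 and 0.72, all of which belong to the miR-200 family of epithelial miRNAs. miR-218-5p was closest to miR-344c-3p, miR-3059-5p and miR-24-1-5p, with an r of 0.75, 0.72 and 0.70.

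For comparison, 19 other miRNAs with known roles in synaptic plasticity were tested in the same fits. In TG mice 1 rose with age, 1 fell and 17 were not called, where 7.47% of all 629 miRNAs tested were called as higher and 8.27% as lower. The median log2FC of the 19 was −0.17, beside −0.09 over all miRNAs tested. The neuronal miR-128-3p rose with a log2FC of 0.73 (SE 0.21, adjusted p of 0.021 in edgeR), and miR-125b-5p fell by 0.62 on the log2 scale (SE 0.19, adjusted p of 0.0266). Among controls by age, by genotype at either age and in the interaction, none of the 19 was called, with a median log2FC of −0.09, 0.09, 0.03 and −0.17.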

How the data were processed

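Small RNA libraries of the hippocampal CA1 region were grouped by age and genotype as given in the titles. The authors trimmed adapters with cutadapt (2.8 in the submitters' processing notes), aligned and quantified reads with mirdeep2 on mm10 and miRBase, and deposited raw counts per pair of mature miRNA and precursor. The 52 UniSp spike-in entries, 0.0851% to 0.252% of counts, were left out. Deposited normalized values were not used.

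Where a mature miRNA is listed with several precursors, the row of highest total stood for it. For each comparison, only its own groups entered edgeR 4.0.16 (R 4.3.3): filterByExpr (minimum count 10, minimum total 15), TMM, robust quasi-likelihood test and Benjamini-Hochberg adjustment over all miRNAs. Log2 CPM used a prior count of 2. Arm ratios used limma 3.58.1 (pseudocount 0.5). Scripts were tested on simulated data. Alternatives were DESeq2 1.42.0, RUV factors computed from their definitions, other filters, normalizations and mice. The study names DESeq2 with RUVSeq without the factors, so edgeR was the main test.

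The miRNAs and lists were chosen with earlier results of these data known. Named miRNAs were the 6, their other arms, the 3 closest in level to each, and up to 4 called synaptic miRNAs with the largest change in TG mice by age. The labels do not say how mice were kept or processed, and p-values measure the spread between mice.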

Additional observations from a re-analysis of the deposited data

Results flagged for a closer look

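In wild-type control mice of 3 months, miR-135b-5p stood at 9.86 CPM in mouse 4 and between 27.9 and 40.2 CPM in the other 4 mice. On log2 CPM, the gap to the nearest mouse as a share of the range exceeded the 95% limit of Dixon's test for 5 samples. This was 1 flag among 12 groups tested, and chance alone flags about 1 in 20 groups.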

How the results depend on the processing

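Values here are log2FC unless called counts or differences of log2 arm ratios, and the cause of each change was not tested. The call of miR-218-5p in TG mice by age was kept in 9 of 12 alternatives, with a log2FC of 0.47 to 0.67 in all 12, and was lost without a low-count filter (0 of the 6 called), within libraries with a TMM factor under 1 (0 of the 6) and with a replicate block (0.47, adjusted p of 0.0613 in edgeR). No alternative called any of the 6 miRNAs by genotype or in the interaction. Changes of sign concerned miRNAs and arm ratios not called in the report.

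DESeq2 called 1 of the 6 and 15 miRNAs in wild-type control mice by age, and gave 0.00014 for miR-135b-5p by genotype at 3 months, where RLE normalization gave 0.00035. With 2 RUVr factors in DESeq2, 3 of the 6 and 312 miRNAs were called in TG mice by age, 2 of the 6 and 219 in wild-type control mice, 87 and 4 by genotype at 3 and 6 months and 5 in the interaction. That fit gave 0.052 for miR-135a-5p in TG mice, −0.015 for miR-137-3p by genotype at 3 months and 0.083 for miR-135a-5p at 6 months. With 1 spike-in factor, 2 of the 6 and 200 of the 629 miRNAs tested were called in TG mice by age, and 5 miRNAs in wild-type control mice. It gave 0.28 for miR-135a-5p and 0.058 for miR-137-3p in TG mice, and 0.14, 0.0039 and 0.054 for miR-135a-5p, miR-137-3p and miR-153-3p in wild-type control mice. By genotype it gave 0.19, 0.10 and 0.12 for miR-135a-5p, miR-135b-5p and miR-138-5p at 3 months, and 0.21 and 0.061 for miR-135a-5p and miR-137-3p at 6 months. Without a low-count filter, miR-135b-5p had 0.0039 and miR-138-5p 0.0098 by genotype at 3 months.

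The classes of TMM factor were added after the data were examined. Within libraries of at least 1, 2 of the 6 and 292 miRNAs were called in TG mice by age, 2 in wild-type control mice and 2 in the interaction. There miR-135a-5p, miR-137-3p and miR-153-3p had 0.11, 0.074 and 0.062 in wild-type control mice, miR-135a-5p, miR-135b-5p and miR-138-5p had 0.31, 0.032 and 0.27 by genotype at 3 months, miR-135b-5p had −0.18 at 6 months, and miR-135a-5p and miR-135b-5p had −0.50 and −0.26 in the interaction. Within libraries under 1, 43 miRNAs were called in TG mice by age, and miR-135a-5p and miR-137-3p had 0.44 and 0.19, and 0.52 and 0.25 by genotype at 6 months. Leaving out the 3 shallowest libraries, also added later, gave −0.045 for miR-135b-5p by genotype at 6 months, −0.032 for miR-135a-5p in the interaction, and arm ratios of 0.22 for miR-135a-2-3p and 0.025 for miR-218-2-3p in wild-type control mice.

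Replicate numbers recur in all groups. Same-numbered mice deviated together (r over 0.1) in 7 of 9 pairs in TG mice by age, with a mean r of 0.23. They did so in 2 of 5 pairs in wild-type control mice, 2 of 5 by genotype at 3 months and 9 of 11 at 6 months, the last with a mean r of 0.26. The numbers were not taken to pair the mice, because the labels state no pairing. The numbers did recur with the TMM factor. In TG mice a factor under 1 fell on mice 1, 2, 3 and 8 at 3 months and on mice 1, 2, 3, 4, 8 and 9 at 6 months. In wild-type control mice it fell on mice 1, 2, 3, 4, 5 and 9 at 6 months and on none at 3 months. The part of the factor in the shared deviations was not tested. With the replicate block, miR-153-3p was called in TG mice by age (−0.75, adjusted p of 0.0305 in edgeR) and miR-218-5p was not. In wild-type control mice the block called 250 of the 660 miRNAs tested and 3 of the 6. These were miR-135a-5p (−1.37, adjusted p of 0.00387 in edgeR), miR-137-3p (−1.56, 0.00585) and miR-153-3p (−0.92, 0.0174). The block also called 3 arm ratios, those of miR-135a-5p to its 3p arms (−2.56 and −2.17) and of miR-137-3p to miR-137-5p (−1.71). With the block, the age change in these controls rests on mice 1 to 5, the numbers present at both ages. Their TMM factors were 1.01 to 1.33 at 3 months and 0.62 to 0.96 at 6 months. Age and the factor therefore cannot be told apart in that fit. The block also gave −0.20 for miR-135b-5p, −0.31 for miR-138-5p, and arm ratios of −0.22 for miR-135b-3p and −0.33 for miR-138-1-3p in these controls. In TG mice the arm ratio of miR-135a-1-3p was −0.29. By genotype the block gave −0.51 for miR-137-3p and −0.091 for miR-153-3p at 3 months, 0.29, 0.18 and 0.027 for miR-135a-5p, miR-137-3p and miR-153-3p at 6 months, and 0.38 and 0.14 for miR-137-3p and miR-138-5p in the interaction.

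Without the 2 mice of conflicting labels, miR-135a-5p, miR-137-3p and miR-153-3p had 0.048, 0.029 and 0.068 in wild-type control mice by age, miR-135a-5p, miR-135b-5p and miR-138-5p 0.22, 0.25 and 0.13 by genotype at 3 months, and miR-135a-5p and miR-135b-5p −0.30 and −0.22 in the interaction. Counting these mice as TG gave 0.048, 0.029 and 0.068, then 0.34, 0.36 and 0.20, and −0.42 and −0.30 for the same miRNAs. A pseudocount of 5 reads left 1 of the arm ratios called in TG mice, with −0.020 for miR-135a-1-3p, and gave −0.13 for miR-135b-3p and −0.030 for miR-218-1-3p in wild-type control mice.

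Leaving out each mouse in turn in TG mice by age gave 72 (without TG mouse 5 of 3 months) to 131 (without TG mouse 8 of 3 months) called miRNAs, 1 to 2 of the 6, and −0.34 to 0.061 for miR-135a-5p. Leaving out each wild-type control mouse of 3 months gave 0 to 4 called miRNAs in wild-type control mice by age, 0 without mouse 2, 3 or 4 and 4 without mouse 1 or 5. There the ranges were −0.47 to 0.093 for miR-135a-5p, −0.091 to 0.31 for miR-135b-5p, −0.50 to 0.079 for miR-137-3p and −0.32 to 0.014 for miR-153-3p, and the arm ratios −0.49 to 0.00032 for miR-135a-2-3p, −0.026 to 0.22 for miR-138-1-3p and −0.22 to 0.051 for miR-218-2-3p. By genotype at 3 months they were −0.31 to 0.27 for miR-135a-5p, −0.23 to 0.17 for miR-135b-5p and −0.16 to 0.036 for miR-138-5p, and in the interaction −0.30 to 0.26 for miR-135a-5p and −0.10 to 0.30 for miR-135b-5p. Depth limited the 3p arms of miR-218, with 0 to 36 reads per library, and all comparisons with the 5 wild-type control mice of 3 months rested on few mice.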
